A study of Mus musculus with 6 samples.

Results

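Collagens are secreted matrix proteins whose chains wind into rope-like helices built on Gly-X-Y repeats. In an artery the fibrillar types I, III and V give the media and adventitia their tensile strength, while type IV forms the sheet-like network of the basement membrane on which endothelial cells rest. The amount and crosslinking of wall collagen are classical determinants of arterial stiffness, the subject named in the series title. The collagen genes were taken as all probes whose platform symbol reads Col, a number, the letter a and a number. This rule, which uses no measured value, found 91 of the 45281 probes on the array, standing for 41 genes of the 19057 named on it, with 1 to 5 probes each. They comprised 27 probes of 11 fibrillar genes, 16 probes of 8 basement membrane genes (type IV and the multiplexins XV and XVIII) and 48 probes of 22 other collagen genes.

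RNA enriched for endothelium was taken from carotids of C57Bl/6J wild-type mice, with no other agent named, and hybridised to 6 Illumina bead arrays. The sample descriptions assign 3 arrays to stable flow and 3 to disturbed flow, a term for the low and oscillating shear of bends and branches. How flow was set is not given in the labels used here. Ages are not given in the labels used here, nor whether a sample pooled several animals, so the p-values reflect how far these samples spread, a spread that may be technical. The 2 groups lay on 1 slide each, so slide and flow cannot be told apart. The column names of the deposited matrix contradict the descriptions. In 6 of 6 cases a column had the rank order of an array from the opposite flow group. Groups here follow the descriptions, differences are disturbed minus stable flow, and under the matrix names all 18 collagen differences given below take the opposite sign.

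Signals are normalized log2 intensities, and a probe counted as above background on an array when its detection p against negative control beads was under 0.05. The arrays differed in how much they detected at all. The share of all probes above background was 35.0%, 9.74% and 24.6% under stable flow (replicates 1, 2 and 3, the order used throughout) and 34.7%, 29.7% and 19.6% under disturbed flow. Endothelial identity was borne out by Pecam1, Cdh5 and Tie1, each above background on all 6 arrays, and 11 of 12 endothelial markers were above background on 5 arrays, with 7 on stable flow replicate 2. Kdr, which has 2 probes, was above background on 0 arrays by the probe with the higher mean. Markers of other wall cells were seen too. Above background on at least 1 array were 8 of 10 smooth muscle and 10 of 10 fibroblast markers, beside 22352 of all 45281 probes. Of these lists 5 and 8 genes were above background on at least 3 arrays. Acta2 was on all 6, but the Tagln probe read was on 0. In such bulk RNA, fewer cells of a type and less RNA per cell cannot be told apart.

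Most collagen probes were at background in this endothelium-enriched RNA, as were many probes of the whole array, and 26 of the 41 genes had a probe above it on at least 1 array. Of the 91 probes, 53 were above background on 0 arrays and 20 on 1 or 2 arrays, beside 22929 and 9806 of all 45281. The other 18 were above background on at least 3 of the 6, the condition for being tested. The tested probes stand for 14 genes. Above background on at least 1 array were 14 fibrillar, 10 basement membrane and 14 other collagen probes. Tested collagens were mostly fibrillar or of the basement membrane: 10 of 27 fibrillar probes (37.0%) and 5 of 16 basement membrane probes (31.3%) were tested, but 3 of 48 other collagen probes (6.25%), beside 27.7% of all probes on the array. These shares are descriptions with no test, since probes of a gene share their target. The normalized values of the 53 undetected probes ran from 4.14 to 5.71, with a median of 4.30, near the floor of this scale. The tested probes ran from 4.21 to 10.56, with a median of 5.18.

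The number of collagen probes above background varied between arrays within each flow group. It came to 22, 8 and 19 under stable flow and to 21, 21 and 9 under disturbed flow, so the described groups overlapped. Fibrillar probes gave 10, 3 and 9 against 9, 10 and 5. Basement membrane probes gave 8, 0 and 4 against 6, 7 and 2, and other collagens 4, 5 and 6 against 6, 4 and 2. The lowest numbers of fibrillar and basement membrane probes thus fell on stable flow replicate 2 and disturbed flow replicate 3, the arrays with the lowest shares over all probes.

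**Figure D1:**
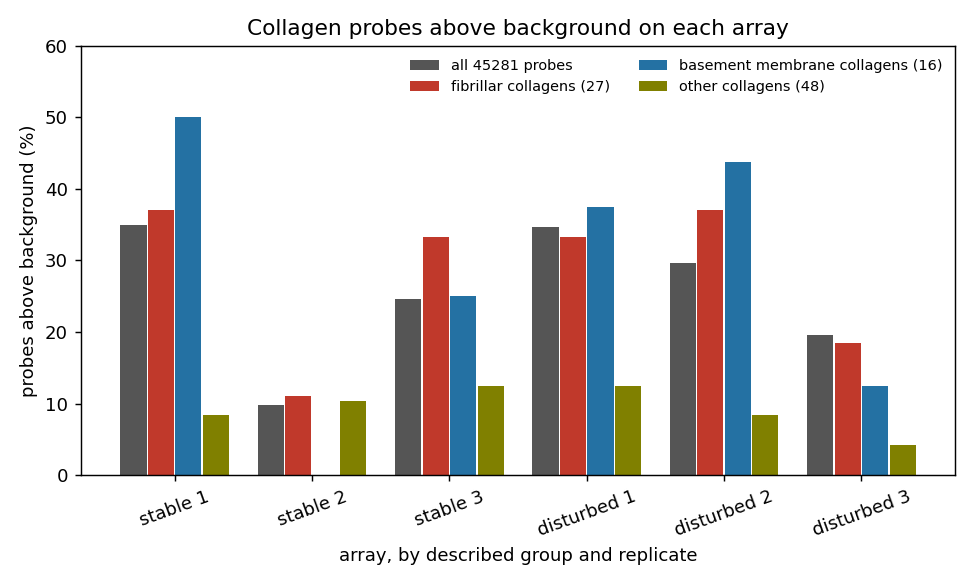
Bars give the percentage of probes above background (detection p under 0.05) on each of the 6 arrays, for all 45281 probes and for the 27 fibrillar, 16 basement membrane and 48 other collagen probes. Basement membrane collagens ranged from 0 of 16 probes on stable flow replicate 2 to 8 of 16 (50%) on stable flow replicate 1, and other collagens stayed at or below 12.5%.

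No collagen passed the test between the described flow groups. With an adjusted p under 0.05 as the threshold, limma gave 0 calls among the 18 tested probes and 0 among all 12546 (0%). At an unadjusted p under 0.05 there was 1 collagen probe, Col3a1, beside 2.69% of all tested probes in either direction and 1.55% higher. The groups did not overlap for 1 collagen probe, Col18a1, which was higher, beside 9.68% of all in either direction and 5.68% higher. Of the 18 differences 11 were above 0 and 7 below, beside 57.4% above 0 over all tested probes. This split depended on the processing, with 7 above and 11 below under cyclic loess and under array weights, 9 and 9 when arrays were scaled to the same 75th percentile, and 6 and 12 without stable flow replicate 2. Their median was 0.13, against 0.098 over all tested probes, and it turned to -0.26 when stable flow replicate 2 was left out and to -0.16 when disturbed flow replicate 2 was. The standard errors, from 0.35 to 1.07, leave room for sizeable differences, and 17 of the 18 intervals at 95% confidence included 0.

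**Figure D2:**
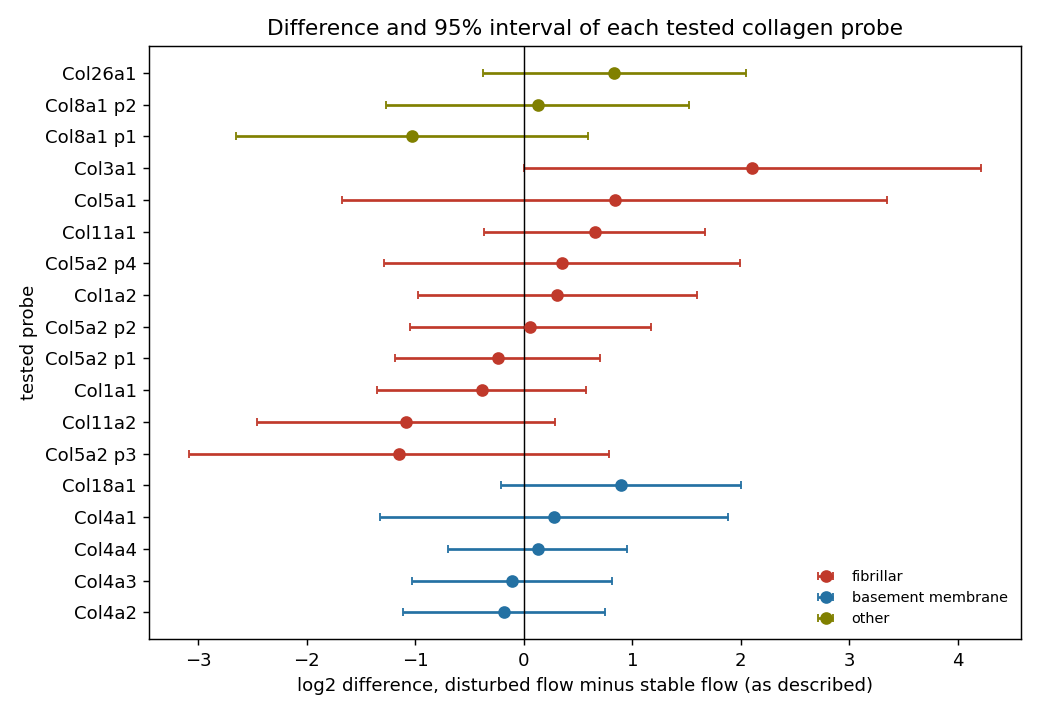
Points give the log2 difference (disturbed minus stable flow, as described, 3 arrays each) of each of the 18 tested collagen probes, coloured by class, and bars its 95% interval from the limma fit. The interval of Col3a1 starts at 0.00041, just above 0, and the others span 0.

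Fibrillar collagens. Col1a1 and Col1a2 encode the chains of type I collagen, the main fibre protein of the arterial wall. Col1a1 (ILMN_2687872) had 5.83, 4.90 and 4.60 under stable flow and 4.57, 4.89 and 4.71 under disturbed flow. Only stable flow replicate 1 stood clear of the rest, and the probe was above background on that array and on disturbed flow replicates 1 and 2. The difference was -0.39 (SE 0.41, limma adjusted p = 0.890), and -0.02 without stable flow replicate 1. Col1a2 (ILMN_1253806) had 6.45, 4.42 and 5.52 against 5.45, 5.74 and 6.13, and was above background on every array other than stable flow replicate 2. As for its partner chain, the highest value was that of stable flow replicate 1. The groups overlapped, with a difference of 0.31 (SE 0.55, 95% interval -0.98 to 1.59, limma adjusted p = 0.918), and of -0.22 without stable flow replicate 2.

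Col3a1 encodes type III collagen, the fine fibre collagen of distensible tissues such as artery, and carried the largest collagen difference. Its tested probe (ILMN_1258629) had 4.46, 4.28 and 5.01 under stable flow and 6.97, 4.62 and 8.48 under disturbed flow. Disturbed flow replicates 1 and 3 lay above every stable flow array, while replicate 2 lay inside the stable flow range. Raw signals showed the same split, with 248 and 262 on disturbed flow replicates 1 and 3 but 81.7 on replicate 2. The group values were 4.58 ± 0.38 and 6.69 ± 1.94 (SD, n = 3 each), a difference of 2.11 (SE 0.90, 95% interval 0.00041 to 4.21, limma adjusted p = 0.890). Leaving out disturbed flow replicate 3 gave 1.27 and leaving out replicate 2 gave 3.09. With no background correction the difference was 1.00. The other Col3a1 probe (ILMN_2683958) was above background on disturbed flow replicate 1 alone and stood at 4.67 there, 4.26 and 4.48 on disturbed flow replicates 2 and 3, and 4.22 to 4.33 under stable flow.

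Type V collagen seeds type I fibres and limits their width. Col5a1 (ILMN_2748402), its pro-alpha1 chain gene, was the only collagen probe above background on all 6 arrays. It had 7.43, 7.51 and 6.35 against 10.56, 7.05 and 6.19. Disturbed flow replicate 1, with a raw signal of 2114, stood far above the other arrays, whose raw signals ran from 100.1 to 407. The difference of 0.84 (SE 1.07, 95% interval -1.67 to 3.35, limma adjusted p = 0.895) turned to -0.46 without that array.

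Marker genes of other cells were followed beside Col3a1 and Col5a1. Summed linear intensity of the 8 macrophage and monocyte markers with a probe was 173, 172 and 206 under stable flow and 610, 176 and 347 under disturbed flow, highest on the same disturbed flow replicates 1 and 3 as Col3a1. Of these 8 markers, 1, 0 and 1 were above background under stable flow and 6, 2 and 1 under disturbed flow, and C1qa and Mrc1 were on 0 arrays. The monocyte receptor gene Cd14 alone was high on disturbed flow replicate 3, at 7.44 against 4.34 to 4.61 elsewhere. The leukocyte antigen gene Ptprc stood at 7.70 on disturbed flow replicate 1, with 4.20 to 4.60 elsewhere. The 10 fibroblast and adventitia markers summed to 2096, 891 and 1002 against 552, 1352 and 1164, while 8, 3 and 7 of them were above background against 10, 7 and 5. Disturbed flow replicate 1 thus had the lowest sum and the highest count, with Clec3b lowest there at 7.02 and Cygb highest there at 5.53. Smooth muscle markers summed to 612, 495 and 569 against 799.6, 585 and 432, with 6, 1 and 3 above background against 6, 6 and 2. The part of these cells in the collagen values was not tested.

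Col5a2, the partner chain of type V collagen, shows how far probes of 1 gene can differ here. Its 4 tested probes gave differences of -1.15, -0.24, 0.06 and 0.36, with SEs of 0.82, 0.40, 0.47 and 0.70. The lowest value came from ILMN_2470069, which had 4.90, 4.55 and 7.81 against 4.63, 4.73 and 4.45, so that stable flow replicate 3 stood alone. Without that array the difference was -0.13. For ILMN_2802687 the array that stood out was another one, with 5.68, 4.33 and 5.44 against 5.45, 6.82 and 4.24, highest on disturbed flow replicate 2, and its difference turned to -0.31 without it and to -0.08 without stable flow replicate 2. ILMN_1255413 had 5.72, 4.91 and 6.34 against 5.97, 6.02 and 5.15, and ILMN_1221670 had 5.38, 5.27 and 5.19 against 5.65, 5.07 and 4.39. Neither set the groups apart. The first turned to -0.33, -0.06 and -0.09 without stable flow replicate 2, disturbed flow replicate 1 and disturbed flow replicate 2, and the second to 0.08 without disturbed flow replicate 3.

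The type XI chains, best known from cartilage fibrils, had differences of opposite sign. Col11a1 (ILMN_2606039) had 4.56, 4.37 and 4.40 against 4.32, 5.18 and 5.78, a difference of 0.65 (SE 0.43, limma adjusted p = 0.890). It was above background on stable flow replicate 1 and disturbed flow replicates 2 and 3 alone. The difference was 0.34 without disturbed flow replicate 3 and 0.98 without replicate 1. Another Col11a1 probe, ILMN_1232987, was above background on stable flow replicate 3 alone, with group means of 4.59 (stable) and 4.26 (disturbed). ILMN_1217703 and ILMN_2776931 were above background on 0 arrays. Col11a2 (ILMN_2865074) had 4.73, 6.99 and 5.45 against 4.41, 4.85 and 4.66, a difference of -1.08 (SE 0.58, limma adjusted p = 0.890). Its highest normalized value was on stable flow replicate 2, and without that array the difference was -0.50. Raw signals were 128.1, 100.5 and 124.8 against 88.9, 85.3 and 84.5, so that array was not the highest before normalization. The difference between these 2 genes was not tested.

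**Figure D3:**
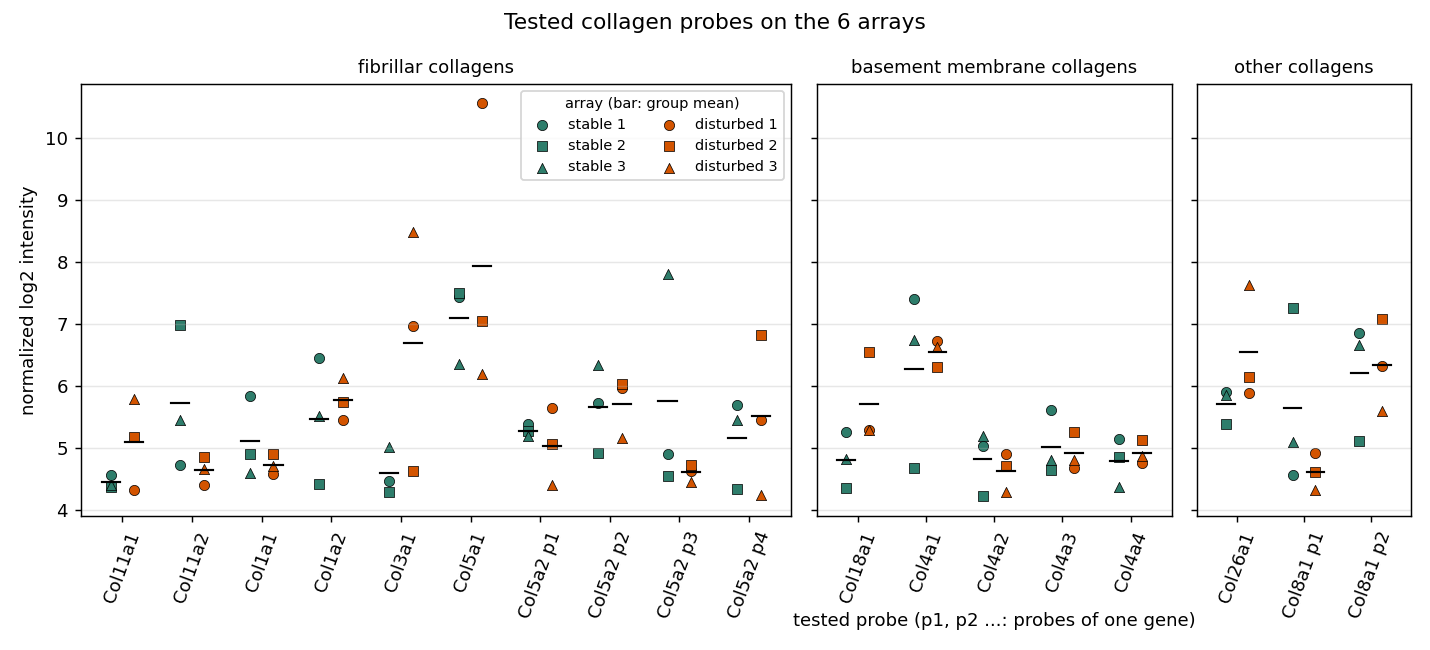
Symbols give the normalized log2 intensity of each of the 18 tested collagen probes on the 6 arrays, by class, with green for stable flow, orange for disturbed flow, a shape for each replicate and a short bar for each group mean. Single arrays stand apart from the rest, such as disturbed flow replicate 1 for Col5a1 (10.56) and disturbed flow replicate 3 for Col3a1 (8.48).

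Basement membrane collagens. Col4a1 and Col4a2 encode the chains of the widespread form of type IV collagen, laid down by endothelium itself among other cells. The genes sit head to head, with RefSeq starts 21 bases apart on opposite strands of chromosome 8. Their start regions are shown because the chains assemble with each other and these were basement membrane genes seen on most arrays. Each window runs from 250 bases before to 50 bases after the start (RefSeq, GRCm38.p6), at chr8:11312777-11313076 on the minus strand for Col4a1 and chr8:11312555-11312854 on the plus strand for Col4a2. Capitals mark, on either strand, the CCAAT box (CCAAT), the GC box (GGGCGG) and the TATA box (TATAAA).
Col4a1: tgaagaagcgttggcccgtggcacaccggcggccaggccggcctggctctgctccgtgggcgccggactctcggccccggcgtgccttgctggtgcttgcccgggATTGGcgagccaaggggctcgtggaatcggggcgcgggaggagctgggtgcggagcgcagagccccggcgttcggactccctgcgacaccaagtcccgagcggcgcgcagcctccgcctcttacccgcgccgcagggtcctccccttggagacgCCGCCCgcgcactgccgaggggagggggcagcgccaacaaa
Col4a2: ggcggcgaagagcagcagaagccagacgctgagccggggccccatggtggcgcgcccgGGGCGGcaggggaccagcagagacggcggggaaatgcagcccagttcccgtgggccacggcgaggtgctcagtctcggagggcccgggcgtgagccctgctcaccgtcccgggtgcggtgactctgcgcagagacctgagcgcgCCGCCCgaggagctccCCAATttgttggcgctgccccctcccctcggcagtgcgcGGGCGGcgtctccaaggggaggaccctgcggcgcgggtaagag
Both windows hold a CCAAT match, at -145 for Col4a1 and -32 for Col4a2 from the start, and neither holds TATAAA. The GGGCGG match at 10 in the Col4a1 window and that at 8 in the Col4a2 window are the same bases, 11312812 to 11312817, read from either strand.

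Col4a1 (ILMN_2621643) had 7.41, 4.67 and 6.74 under stable flow and 6.72, 6.31 and 6.62 under disturbed flow, and was above background on 5 of 6 arrays. Stable flow replicate 2 was the low one, with a raw signal of 91.6 against 401 and 189 on stable flow replicates 1 and 3. The difference was 0.28 (SE 0.68, 95% interval -1.33 to 1.88, limma adjusted p = 0.942), and -0.54 without that array. Col4a2 (ILMN_2822579) had 5.03, 4.21 and 5.19 against 4.90, 4.71 and 4.28, a difference of -0.18 (SE 0.40, 95% interval -1.11 to 0.75, limma adjusted p = 0.937). That difference came to -0.0003 without stable flow replicate 3, -0.011 without disturbed flow replicate 3 and -0.53 without stable flow replicate 2. For both chains stable flow replicate 2 was the lowest array and the groups overlapped.

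Col4a3, Col4a4 and Col4a5 encode the chains of the specialised type IV network known from the kidney glomerulus. Col4a3 (ILMN_1213850) had 5.61, 4.64 and 4.80 against 4.67, 5.25 and 4.81, and was above background on stable flow replicates 1 and 3 and disturbed flow replicates 1 and 2. Col4a4 (ILMN_2983387) had 5.14, 4.86 and 4.37 against 4.75, 5.13 and 4.86, close to the floor on all arrays. Their differences of -0.11 (SE 0.39, but 0.14 without stable flow replicate 1 and 0.0089 without disturbed flow replicate 1) and 0.13 (SE 0.35, -0.09 without stable flow replicate 3) were small beside their errors. A second Col4a4 probe (ILMN_2679871), above background on 2 arrays and so not tested, had 7.60 on disturbed flow replicate 2, with 4.27 to 4.89 elsewhere. Col4a5 was above background on 1 array by 1 of its 2 probes, and Col4a6 on 0.

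Col18a1 encodes type XVIII collagen, a basement membrane multiplexin whose C-terminal fragment is endostatin. Its tested probe (ILMN_2735184) had 5.26, 4.34 and 4.82 against 5.29, 6.54 and 5.28. All disturbed flow arrays lay above all stable flow arrays, but the gap between the groups was narrow, from 5.26 to 5.28, and disturbed flow replicate 2 was the highest array. The group values were 4.81 ± 0.46 and 5.70 ± 0.72 (SD, n = 3 each), a difference of 0.90 (SE 0.47, 95% interval -0.21 to 2.01, limma adjusted p = 0.890). It was 0.49 without disturbed flow replicate 2, and 0.32 with no background correction. Raw signals were 160.4, 87.3 and 110.7 against 114.9, 147.4 and 89.4, so the groups overlapped before normalization. The other Col18a1 probes were above background on 1 array each, stable flow replicate 1 for ILMN_1225839 and disturbed flow replicate 1 for ILMN_2937542, and were not tested. The other multiplexin gene, Col15a1, was above background on 0 arrays.

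Start regions of the fibrillar genes Col1a2 and Col3a1 are shown for contrast, since both belong to the fibres of the wall and their high arrays differed, stable flow replicate 1 for Col1a2 and disturbed flow replicates 1 and 3 for Col3a1. The windows are chr6:4505368-4505667 for Col1a2 and chr1:45311288-45311587 for Col3a1, both on the plus strand, with the same capitals.
Col1a2: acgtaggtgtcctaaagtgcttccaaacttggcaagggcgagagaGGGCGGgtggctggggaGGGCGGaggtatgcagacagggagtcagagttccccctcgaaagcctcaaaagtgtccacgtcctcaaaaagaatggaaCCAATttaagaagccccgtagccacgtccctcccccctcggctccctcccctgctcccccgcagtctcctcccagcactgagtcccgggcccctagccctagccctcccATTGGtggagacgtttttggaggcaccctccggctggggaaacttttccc
Col3a1: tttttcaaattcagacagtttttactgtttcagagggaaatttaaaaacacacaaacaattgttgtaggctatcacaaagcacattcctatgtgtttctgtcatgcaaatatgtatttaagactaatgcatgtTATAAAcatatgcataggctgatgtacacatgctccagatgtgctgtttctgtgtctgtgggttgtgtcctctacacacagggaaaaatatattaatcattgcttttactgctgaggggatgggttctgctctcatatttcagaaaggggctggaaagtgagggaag
The Col1a2 window holds CCAAT matches at -109 and 1 and GGGCGG matches at -205 and -188. The Col3a1 window holds TATAAA at -117 and no match to the others, with a GC content of 37.7% against 61.0% for Col1a2. Of the 36 windows found for 33 of the 41 collagen genes, 23 (63.9%) held GGGCGG, 13 (36.1%) CCAAT and 5 (13.9%) TATAAA, beside 35.7%, 37.4% and 13.6% of the 32851 windows of the whole table. A match is a description of letters and not a site in use.

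Other collagens. Only Col8a1 and Col26a1 had tested probes among 22 genes of this class. Col8a1 encodes a chain of type VIII collagen, a network former made by vascular cells. Its probe ILMN_2503553 had 6.85, 5.11 and 6.65 against 6.32, 7.08 and 5.60, a difference of 0.13 (SE 0.60, limma adjusted p = 0.969) that turned to -0.44 when stable flow replicate 2 was left out and to -0.23 when disturbed flow replicate 2 was. The second Col8a1 probe, ILMN_1255925, had 4.56, 7.25 and 5.09 against 4.91, 4.60 and 4.31, a difference of -1.03 (SE 0.69, limma adjusted p = 0.890) and of -0.24 without stable flow replicate 2. After normalization that array was the lowest for the first probe and the highest for the second. Raw signals of the second probe were 119.2, 101.8 and 115.8 against 102.8, 81.3 and 78.5, so stable flow replicate 2 was not highest there. Col26a1 (ILMN_1234674) had 5.90, 5.39 and 5.85 against 5.88, 6.14 and 7.63, a difference of 0.83 (SE 0.52, limma adjusted p = 0.890). It was 0.31 without disturbed flow replicate 3, the array that stood apart after normalization. Raw signals were 210.3, 94.8 and 137.8 against 143.7, 123.1 and 154.4, so stable flow replicate 1 was the highest before normalization. The other Col26a1 probes, ILMN_1247358 and ILMN_1247922, were above background on 0 arrays.

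The remaining 27 genes had no probe that could be tested. Above background on 1 or 2 arrays were the fibrillar Col2a1, the basement membrane Col4a5, and 10 others: Col6a2 of the beaded filaments, Col7a1 of anchoring fibrils, Col10a1, the fibril-associated Col9a1, Col16a1, Col19a1 and Col22a1, and the transmembrane Col13a1, Col17a1 and Col25a1. The 15 genes above background on 0 arrays were Col5a3, Col24a1 and Col27a1 of the fibrillar class, Col4a6 and Col15a1 of the basement membrane, and Col6a1, Col6a4, Col6a5, Col6a6, Col8a2, Col9a2, Col9a3, Col14a1, Col23a1 and Col28a1.

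Stable flow replicate 2, where detection was lowest, was read for the collagens it did detect. Its 8 probes were 1 each of Col2a1, Col9a1, Col10a1, Col11a2, Col13a1, Col22a1, Col5a1 and Col8a1. Where these genes have further probes, as all but Col10a1 and Col5a1 do, those were at background on that array. Of the 8, 3 (37.5%) and 4 (50%) were also above background on stable flow replicates 1 and 3. The shares were 76.0% and 69.6% for all probes above background on stable flow replicate 2. On disturbed flow replicates 1, 2 and 3 it was 3 (37.5%), 2 (25%) and 1 (12.5%), beside 73.9%, 69.1% and 62.7%. Being picked for their detection on that array, the 8 are expected to be high there, and their values are a description only. Col9a1 (ILMN_2939882) had 7.57 on it against 4.33 to 4.82 elsewhere, and Col2a1 (ILMN_2759142) had 6.48 against 4.48 to 4.64. The raw signals behind these values were small. They ran from 96.7 to 103.7 on an array with a median signal of 88.5, and the interquartile range of log2 signal over tested probes was 0.14 there against 0.30 to 0.93 on the others. With a detection p under 0.01, 3 of the 8 stayed above background.

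Because Col2a1, Col9a1, Col10a1 and Col11a2 are collagens of cartilage, cartilage markers were read beside them. Every probe of the related genes Col11a1, Col9a2 and Col9a3 was at background on stable flow replicate 2. So were the other probes of Col2a1, Col9a1 and Col11a2. The summed intensity of the cartilage markers came to 507 on stable flow replicate 2, with 178 to 188 for the other arrays. Most of that excess was Comp, a cartilage and tendon matrix gene, which had 8.36 on that array and 4.36 to 4.69 elsewhere. Comp was above background there and on stable flow replicate 1. The other 8 of the 9 markers, Acan and Matn1 among them, were above background on 0 arrays by the probe read for each. A high sum on this array was not limited to cartilage markers. The collagen receptor genes described below also summed highest there, at 645 against 317 to 540 elsewhere. Genes of collagen folding and processing summed lowest there, at 1697 against 1955 to 2507. The part of cartilage in these values was not tested.

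**Figure D4:**
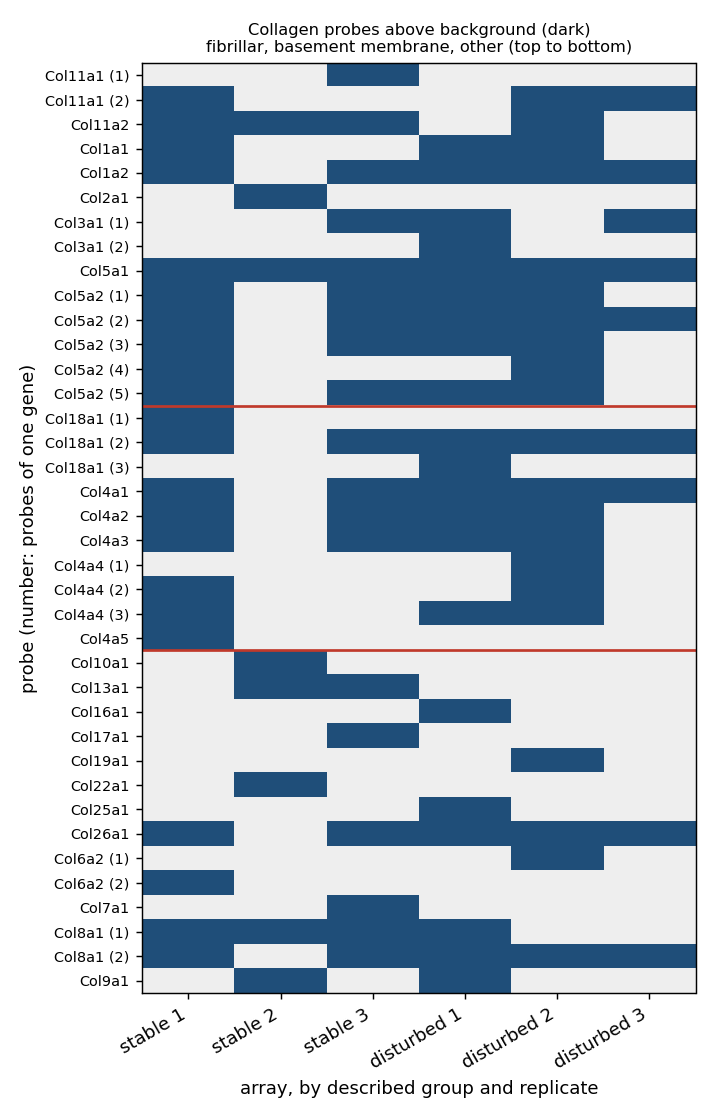
Each row is 1 of the 38 collagen probes above background on at least 1 array, in the order fibrillar, basement membrane and other, and each column is 1 array, with dark cells for a detection p under 0.05. Stable flow replicate 2 lacks all basement membrane probes, and 5 of its 8 dark cells fall among the other collagens.

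Genes that fold, process, bind and degrade collagen gave 0 calls as well. Of the 25 genes of collagen folding and processing, 17 were tested, with 9 higher, 8 lower and a median of 0.03, beside 0.098 over all tested probes. Crtap, which forms a prolyl 3-hydroxylation complex on collagen chains, had 6.31, 7.29 and 6.43 against 5.69, 5.72 and 5.90. Its groups did not overlap, beside 4% of all tested probes whose groups lay apart in this direction, with a difference of -0.90 (SE 0.38, limma adjusted p = 0.890). The prolyl 3-hydroxylase gene P3h2 differed by -1.13 (SE 0.53), with 4.87, 6.13 and 6.88 against 4.72, 4.69 and 5.08, and was -0.68 without stable flow replicate 3. Ppib, the endoplasmic reticulum prolyl isomerase of the same complex as Crtap, had 7.16, 4.46 and 6.77 against 7.86, 7.80 and 6.66. Its difference of 1.31 (SE 0.75) fell to 0.48 without stable flow replicate 2, the low array. Colgalt1, which adds galactose to hydroxylysine, differed by 0.93 (SE 0.57), and by 0.40 without disturbed flow replicate 3.

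Among collagen receptors 2 of 10 genes were tested, with a median of 0.03. Itgb1, the beta1 subunit shared by collagen-binding integrins, was above background on all arrays and had 7.73, 8.40 and 7.22 against 7.00, 7.25 and 8.46. Its difference of -0.21 (SE 0.51) turned to 0.63 when arrays were scaled to the same 75th percentile, to 0.10 when stable flow replicate 2 was left out and to 0.08 when disturbed flow replicate 1 was. Itga1, its alpha1 partner, stayed near the floor and differed by 0.28 (SE 0.35), a value of 0.12 without disturbed flow replicate 1 and 0.49 without replicate 2. The discoidin receptor gene Ddr2 was above background on 0 arrays and Ddr1, by the higher of its 2 probes, on 2.

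Of 9 genes of collagen degradation and its inhibitors 6 were tested, with 4 higher, 2 lower and a median of 0.18. Timp2, a metalloprotease inhibitor, had 10.60, 8.43 and 9.82 against 8.20, 8.24 and 9.10. The difference was -1.10 (SE 0.60, limma adjusted p = 0.890), -0.65 without stable flow replicate 1, and 0.02 when arrays were scaled to the same 75th percentile. The inhibitor gene Timp1 differed by 0.59 (SE 0.43), with 0.26 when disturbed flow replicate 3 was left out and 0.94 when replicate 2 was. Its relative Timp3 differed by 0.23 (SE 0.46), a value that became 1.27 when arrays were scaled to the same 75th percentile, -0.14 without stable flow replicate 3 and -0.0032 with disturbed flow replicate 2 left out. The gelatinase gene Mmp2 differed by 0.33 (SE 0.58), but by -0.20 without disturbed flow replicate 3 and -0.04 without stable flow replicate 2. The collagenase genes Mmp8 and Mmp13 were above background on 1 array each, disturbed flow in both cases, for Mmp13 by the highest of its 3 probes.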

How the data were processed

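Endothelium-enriched carotid RNA of 6 samples was measured on Illumina bead arrays. Each array of the deposited unnormalized table has 1 signal intensity for a probe, on the linear scale, and neither background subtraction nor scaling is seen in it. Beside it stands a detection p-value per probe and array, deposited by the authors. The submitters' processing notes name GenomeStudio 2011.1, with its settings not stated in the sources at hand. A deposited matrix holds processed intensity values on a linear scale whose normalization no label states. Its columns shared a minimum of -17.0 and a maximum of 9720, with medians of 2.50 to 2.62. Whether they were centred on anything other than background stays unknown, and their direction of flow is contradicted by the descriptions.

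Signals were corrected and normalized with neqc (limma 3.58.1, R 4.3.3, offset 16), which infers background from the detection p-values. Probes above background (detection p under 0.05) on 3 or more of the 6 arrays, 12546 in all, entered limma's two-sided moderated test (lmFit, then eBayes). Its p-values were adjusted by Benjamini-Hochberg over all of them, with 0.05 as the threshold. The fit was tested on simulated data. Symbols came from the platform annotation (34885 probes with 1 symbol, 18 with several, 10378 unnamed here) and were unchanged by an update through gene identifiers for the 91 members. A gene of another list is given by its tested probe with the highest mean. Where none was tested it is given by its probe with the highest mean, so counts of arrays hold for that probe. Summed intensities add 1 probe per gene, tested or not, on the linear scale, so genes at the floor add to them. Every collagen gene with a tested probe is named, and at most the 4 genes with the smallest p of each related list, besides genes named for being above background on few arrays. Marker lists are given by counts, sums and up to 3 leading genes. Ptprc, Cd14, Clec3b, Cygb, Kdr, C1qa, Mrc1, Ddr1, Ddr2, Mmp8 and Mmp13 were named after their values were seen. Members and lists were chosen with earlier results of these data known. Of the Schwann cell and adipocyte markers, 0 of 3 and 1 of 6 with a probe were tested, the latter Fabp4 at 0.21 higher. No probe was placed on a genome, so only the RefSeq start windows carry coordinates. The number of arrays limits the precision, with a median standard error of 0.45 over tested probes. Alternatives were other background corrections, normalizations and filters, array weights, a replicate block, the matrix columns, and leaving out each array.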

Additional observations from a re-analysis of the deposited data

How the results depend on the processing

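limma called 0 collagen probes and 0 of all probes in each alternative run. At an unadjusted p under 0.05, counts ran from 92 of 12546 probes (scaling to a common 75th percentile) to 2097 of 45281 (no filter). Collagen probes at that level were 2 of 91 with no filter, and 0 or 1 in each of the other runs. Stable and disturbed flow samples share replicate numbers in the labels, but nothing there says that a number marks 1 animal. Deviations of same-numbered arrays from their group means correlated at -0.035, -0.074 and -0.085. Other combinations of a stable and a disturbed flow array gave -0.064 to 0.11. With 3 arrays in a group such values cannot decide whether arrays were paired, and the numbers were not taken as pairs. The replicate block gave 0 calls, 329 probes at an unadjusted p under 0.05 and the same differences. Without a background correction all 28 named differences kept their sign and shrank. Signs turned with scaling to a common 75th percentile (-0.073 for Col1a2, -0.012 for Col5a2 (ILMN_1255413), 0.63 for Itgb1 and 0.022 for Timp2), with cyclic loess (-0.17 for Col1a2, -0.29 for Col4a1, -0.14 for Col5a2 (ILMN_1255413), -0.16 for Col8a1 (ILMN_2503553), 0.096 for Itgb1 and -0.045 for Mmp2) and with array weights (-0.031 for Col1a2, -0.26 for Col4a1, -0.18 for Col5a2 (ILMN_1255413), -0.073 for Col8a1 (ILMN_2503553) and -0.090 for Mmp2). The matrix columns as named turned all 28 signs, with -0.47 for Col11a1, 0.82 for Col11a2, -0.69 for Col18a1, 0.27 for Col1a1, -0.22 for Col1a2, -1.75 for Col3a1, -0.16 for Col4a1, 0.066 for Col4a2, 0.076 for Col4a3, -0.12 for Col4a4, -0.82 for Col5a1, 0.92 for Col5a2 (ILMN_2470069), -0.037 for Col5a2 (ILMN_1255413), -0.24 for Col5a2 (ILMN_2802687), 0.18 for Col5a2 (ILMN_1221670), 0.83 for Col8a1 (ILMN_1255925), -0.091 for Col8a1 (ILMN_2503553), -0.69 for Col26a1, 0.84 for P3h2, 0.73 for Crtap, -1.07 for Ppib, -0.75 for Colgalt1, -0.19 for Itga1, 0.19 for Itgb1, -0.28 for Mmp2, -0.43 for Timp1, 1.07 for Timp2 and -0.22 for Timp3. Among those that kept their sign, the 75th percentile scaling moved Col11a1 (to 0.36), Col11a2 (to -0.44), Col4a1 (to 0.020), Col4a3 (to -0.30), Col4a4 (to 0.0072), Col5a1 (to 1.45), Col5a2 (ILMN_1221670) (to -0.055), Col8a1 (ILMN_1255925) (to -0.14), Crtap (to -0.48), Colgalt1 (to 0.44), Mmp2 (to 0.20) and Timp3 (to 1.27) by over 1.5 times. When single arrays were left out, 9 of 18 collagen probes and 3 of 10 list genes turned sign at least once, with ranges of -0.22 to 0.67 for Col1a2, -0.54 to 0.74 for Col4a1, -0.33 to 0.14 for Col4a3, -0.087 to 0.22 for Col4a4, -0.46 to 1.65 for Col5a1, -0.33 to 0.40 for Col5a2 (ILMN_1255413), -0.31 to 1.03 for Col5a2 (ILMN_2802687), -0.52 to 0.082 for Col5a2 (ILMN_1221670), -0.44 to 0.51 for Col8a1 (ILMN_2503553), -0.65 to 0.095 for Itgb1, -0.20 to 0.69 for Mmp2 and -0.14 to 0.59 for Timp3. Ranges for those that kept their sign were 0.34 to 0.98 for Col11a1, -1.40 to -0.50 for Col11a2, 0.49 to 1.17 for Col18a1, -0.66 to -0.019 for Col1a1, 1.27 to 3.09 for Col3a1, -0.53 to -0.0003 for Col4a2, -1.86 to -0.13 for Col5a2 (ILMN_2470069), -1.42 to -0.24 for Col8a1 (ILMN_1255925), 0.31 to 1.12 for Col26a1, -1.52 to -0.68 for P3h2, -1.11 to -0.63 for Crtap, 0.48 to 1.75 for Ppib, 0.40 to 1.26 for Colgalt1, 0.12 to 0.49 for Itga1, 0.26 to 0.94 for Timp1 and -1.68 to -0.65 for Timp2. Class medians turned sign in all 4 cases, with -0.26 to 0.35 for all tested collagens, -0.25 to 0.38 for fibrillar collagens, -0.33 to 0.22 for basement membrane collagens and -0.24 to 0.42 for other collagens. With cyclic loess the medians of all tested, fibrillar, basement membrane and other collagens all turned sign, to -0.13, -0.098, -0.22 and -0.12. Array weights turned them to -0.080, -0.059, -0.10 and -0.073, and with no filter on dim probes they were -0.031, -0.030, -0.019 and -0.032. Scaling to a common 75th percentile gave -0.0022, -0.033, 0.0072 and 0.11. With probes above background on all 6 arrays the collagen and fibrillar medians were both 0.84, the value of Col5a1 alone, with no probe left in the other classes. A detection p under 0.01 left 3 collagen probes above background on stable flow replicate 2, of which 1 was fibrillar and 2 were other collagens. It left 6 fibrillar and 2 other collagen probes on disturbed flow replicate 2, and 2 and 1 basement membrane probes on stable and disturbed flow replicate 3. Each matrix column has the rank order of an array of the opposite described group, so the signs turned there are those of swapped group names. The cause of the other shifts was not tested. Signal over background limits these data, since collagen values lie close to the floor on most arrays.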
